A study of Drosophila melanogaster with 10 samples.

Results

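The genes described here are 9 Jonah proteases of Drosophila melanogaster: Jon25Bi, Jon25Bii and Jon25Biii, Jon44E, Jon65Ai, Jon65Aii, Jon65Aiii and Jon65Aiv, and Jon74E. They were chosen by name, as the Jonah genes of cytological bands 25B, 44E, 65A and 74E, from 14292 genes for which transcript values could be summed. All 9 were found and all 9 passed the filter on low values, which left 8722 genes for testing. The rest of the Jonah family, 7 genes of bands 66C and 99, served as a comparison.

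The study compared 2 groups of adult male midguts, with 5 libraries each. Overexpression males were mex-GAL4/UAS-PGRP-LE, and control males were mex-GAL4/+, without the transgene. All were hemizygous for the Dredd D44 allele. By their labels both groups therefore lacked normal Dredd, the caspase that relays signals of the IMD immune pathway, and no group with wild-type Dredd enters the comparison. PGRP-LE detects peptidoglycan of bacteria, and mex-GAL4 drives it in enterocytes, the absorptive cells that also make digestive enzymes. Flies of both groups ate yeast alone at 25 °C with 12 h of light and were dissected 7 days after eclosion, and the series describes RNA from 20 midguts and calls the 5 libraries of a genotype biological replicates. The question is how the receptor affects the gut transcriptome in Dredd mutants.

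Jonah genes encode secreted serine endopeptidases of the chymotrypsin family. Such enzymes are made as inactive precursors with a signal peptide, are released into the gut lumen, and cut dietary protein into peptides that exopeptidases and transporters then handle. Several of the genes lie as tandem copies. Beyond this shared predicted activity, no separate role is given here for the single members.

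Values are TPM, a measure of transcript abundance that is scaled for transcript length and for the total of the library. Changes are given on the log2(TPM + 1) scale as overexpression over control with limma's standard error (SE), and "rose" and "fell" mark a limma adjusted p (Benjamini-Hochberg over all 8722 genes) under 0.05. PGRP-LE itself lay between 4257 and 5030.2 TPM in overexpression libraries and between 35.91 and 41.8 TPM in controls. Dredd transcripts were present in both groups, at 32.96 ± 2.152 TPM with overexpression and 23.17 ± 2.01 TPM in controls (SD, n = 5), and Dredd rose by 0.49 on the log2 scale (limma adjusted p = 3.43e-05). The gene-level TPM do not check the Dredd allele. Within each group, the median correlation of a library with the others, across tested genes, was at least 0.9846. No library stood apart on this measure, which does not speak for single genes. TPM keep no record of depth, which is unknown here. The libraries are whole midguts, and fewer cells of a type and less RNA per cell cannot be told apart in them.

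Of the 9 Jonah genes, 4 rose and 4 fell, and Jon25Bi did not pass the threshold. The 4 that rose were Jon44E, Jon74E, Jon65Ai and Jon25Biii, and the 4 that fell were Jon65Aii, Jon65Aiv, Jon25Bii and Jon65Aiii. Calls were common in the whole data set: 62.9% of tested genes passed the threshold, 40.1% upward and 22.8% downward (50.3% of calls were upward under median-of-ratios rescaling, against 63.7% in the TPM as deposited). A total of 8 calls among 9 genes is therefore read against a high background. Calls with a log2 change of at least 1 in either direction were less common, at 7.26% of tested genes, and 4 of the 9 Jonah genes had one. The groups did not overlap for 6 of the 9 genes, where 48.3% of tested genes did not overlap. The median change of the 9 was 0.08, beside 0.09 for all tested genes.

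**Figure D1:**
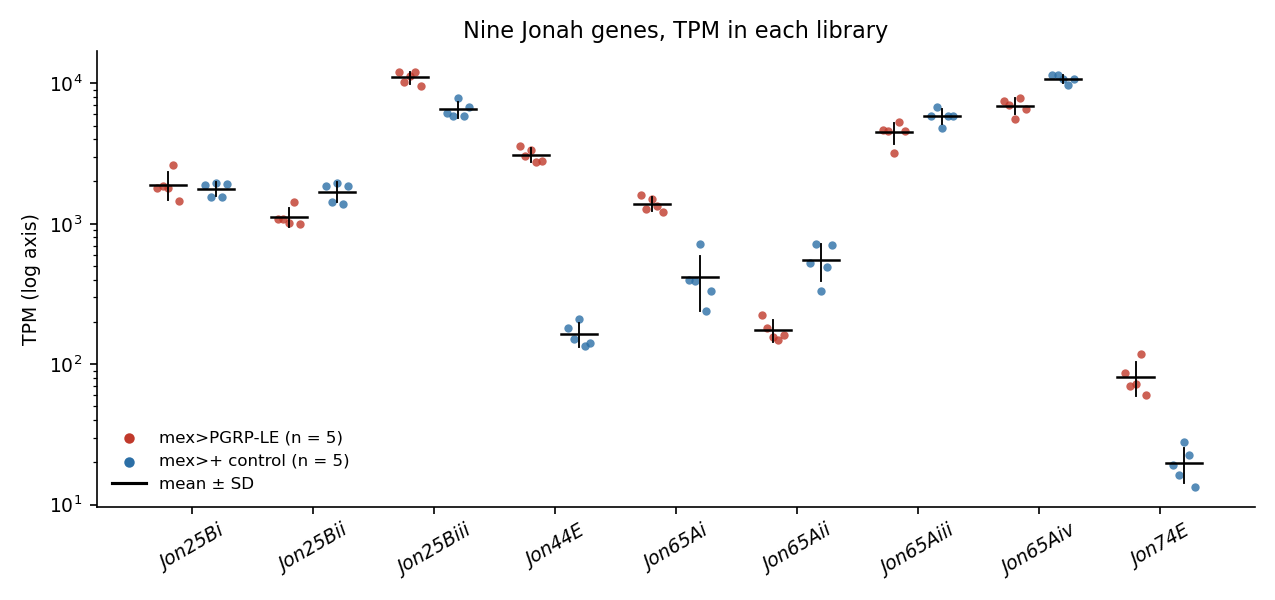
TPM of each of the 9 Jonah genes in every library on a log axis, with overexpression libraries in red at the left and control libraries in blue at the right of each gene; bars show the mean and SD of 5 libraries. Jon44E shows the widest gap, with 3107 and 164.1 TPM on average. The means of Jon25Bi lie at nearly the same height, 1898 and 1768 TPM, with a wider spread of points in the overexpression group.

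Jon44E (FBgn0001285, chromosome 2R, 8691448 to 8692844, plus strand) had the largest change of the 9. Its 5 overexpression libraries held 3590.0, 3016, 3368, 2756 and 2807 TPM, against 181.9, 151.4, 209.9, 135.1 and 142.2 TPM in the 5 controls. Every overexpression library was far above every control. The mean was 18.9 times higher, or 4.25 ± 0.12 on the log2 scale (SE; limma adjusted p = 6.08e-10). In rank by mean TPM it stood 44th among all genes with overexpression and 736th in controls.

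Nearly all of this signal was assigned to the shorter of the gene's annotated transcripts. By coordinates Jon44E-RA (8691448 to 8692347) lies wholly within Jon44E-RB (8691448 to 8692844), so the split between them is an estimate. Jon44E-RA, of 900 nucleotides, averaged 3080.1 ± 359.9 TPM with overexpression and 158.3 ± 30.23 TPM in controls (SD, n = 5). Jon44E-RB, of 1397 nucleotides, averaged 27.25 ± 2.021 TPM with overexpression and 5.80 ± 1.298 TPM in controls (SD, n = 5). Both transcripts were higher, but the longer one by less, so that its share of the gene was between 0.804% and 0.966% in overexpression libraries and between 2.88% and 4.27% in controls. These ranges did not overlap. The last 49 bases of the gene overlap CG8586 on the opposite strand, whose level was 8.294 ± 2.036 TPM with overexpression and 10.78 ± 0.881 TPM in controls (SD, n = 5). The sources used here do not give the strand setting of the quantification, so reads from that overlap cannot be told apart.

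Jon74E (FBgn0023197, chromosome 3L, 17548077 to 17549127, minus strand) was the member with the lowest level in both groups. It held 85.88, 70.26, 72.46, 119.1 and 60.83 TPM in overexpression libraries and 19.25, 16.23, 27.73, 22.56 and 13.45 TPM in controls. The lowest overexpression library was above the highest control. Its log2 change was 1.99 ± 0.22 (SE; limma adjusted p = 3.26e-05), and its mean was 4.12 times higher. The neighbouring gene CG7542, a predicted serine protease that starts 698 bases away on the other strand, rose by less, to 3072 ± 379.5 TPM with overexpression against 1865 ± 99.91 TPM in controls (SD, n = 5; log2 change 0.71 ± 0.08, limma adjusted p = 8.93e-06).

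The 3 genes of band 25B lie on the minus strand of chromosome 2L within 5.20 kb, in the order Jon25Biii (4949941 to 4950767), Jon25Bii (4952243 to 4953136) and Jon25Bi (4954279 to 4955144). Each did something different: Jon25Biii rose, Jon25Bii fell and Jon25Bi did not pass the threshold.

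Jon25Biii (FBgn0031653) was the most abundant of the 9 genes with overexpression. It held 12136, 10195, 11228, 11949 and 9521 TPM in overexpression libraries, against 6131, 5867, 7882, 5849 and 6836 TPM in controls. The groups did not overlap, and the gene moved to 4th place among all genes by mean TPM, against 17th in controls. The log2 change was 0.76 ± 0.09 (SE; limma adjusted p = 2.26e-05).

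Jon25Bii (FBgn0031654) held 1075, 1089, 1011, 1432 and 995 TPM in overexpression libraries, against 1842, 1427, 1963, 1379 and 1872 TPM in controls. The groups overlapped, because overexpression replicate 4, at 1432 TPM, lay above control replicates 2 and 4. The log2 change was -0.60 ± 0.13 (SE; limma adjusted p = 0.00165). Its annotated transcripts have 884 and 894 nucleotides, and the shorter one, Jon25Bii-RA, took 69.6% of the gene with overexpression and 71.0% in controls on average, with overlapping ranges (58.2% to 81.2% and 67.1% to 77.0%). Jon25Bii-RA lies within the longer transcript, so these shares are estimates.

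Jon25Bi (FBgn0020906) held 1811, 1846, 1789, 2602 and 1443 TPM in overexpression libraries and 1877, 1552, 1953, 1553 and 1906 TPM in controls. The overexpression libraries included both the lowest and the highest of the 10 values. The log2 change was 0.08 ± 0.14 (SE; limma adjusted p = 0.62), with a 95% interval from -0.22 to 0.39, and its sign turned to -0.02 under median-of-ratios rescaling.

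The differences between these neighbours were tested directly, as the log2 ratio of 2 genes within each library. In controls Jon25Bi and Jon25Bii stood at nearly equal levels: Jon25Bi was between 1.45 and 1.82 times Jon25Bii in overexpression libraries and between 0.995 and 1.13 times in controls. The difference in log2 change was 0.68, with no overlap between groups (two-sided exact permutation test of 5 against 5, p = 0.00794, the smallest that design allows, adjusted 0.00893 over 9 pairs). For Jon25Bii against Jon25Biii it was -1.36 and for Jon25Bi against Jon25Biii -0.68, with the same exact permutation p and adjusted p. For Jon25Bii against Jon25Biii that p was fixed by the single-gene values, since any pairing of them within a group would have separated the groups. How much sequence the transcripts of these tandem copies share was not measured here, so the split of reads between them is uncertain to an unknown degree.

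The 4 genes of band 65A lie on chromosome 3L. Jon65Aiv (6039155 to 6040135, plus strand) stands apart by 10621 bases from Jon65Aiii (6050757 to 6051690, plus strand), which is followed after 630 bases by Jon65Aii (6052321 to 6053215, plus strand) and after another 277 bases by Jon65Ai (6053493 to 6054443, minus strand). Jon65Ai rose and the others fell, and among the 4 the closest neighbours, Jon65Ai and Jon65Aii, had the largest difference in change.

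Jon65Ai (FBgn0035667) held 1607, 1282, 1508, 1331 and 1212 TPM in overexpression libraries and 400.1, 388.7, 712, 239.8 and 334.4 TPM in controls. The groups did not overlap, although control replicate 3 was well above the other controls. The log2 change was 1.83 ± 0.25 (SE; limma adjusted p = 1.52e-04) and 2.04 without control replicate 3. Its shorter transcript, Jon65Ai-RA, held 97.6% of the gene with overexpression and 95.4% in controls on average, and the ranges did not overlap (96.9% to 97.9% and 94.6% to 96.1%). Jon65Ai-RA too lies within the longer transcript, so the shares are estimates.

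Jon65Aii (FBgn0035666), which converges on Jon65Ai, went the other way. It held 225.4, 181.7, 156.5, 149.7 and 162.6 TPM in overexpression libraries and 529.7, 721.7, 331.8, 492.2 and 702.9 TPM in controls. All overexpression libraries were below all controls, and control replicate 3 was the lowest control. The log2 change was -1.62 ± 0.21 (SE; limma adjusted p = 9.98e-05), or -1.79 without control replicate 3.

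Between these 2 adjacent genes the order of levels turned round. Jon65Ai was 7.13, 7.06, 9.64, 8.89 and 7.46 times Jon65Aii in overexpression libraries, against 0.755, 0.539, 2.15, 0.487 and 0.476 times in controls. Jon65Ai was the higher gene in 5 of 5 overexpression libraries and in 1 of 5 controls, replicate 3. The difference in log2 change was 3.45, the largest of the 9 pairs compared (exact permutation test, p = 0.00794, adjusted 0.00893). Each gene alone separated the groups, in opposite directions, so their ratio had to separate and this p adds nothing to the single-gene results.

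Jon65Aiii (FBgn0035665) was an abundant gene with a small fall. It held 4685, 4579, 3202, 5294 and 4600.1 TPM in overexpression libraries and 5867, 6792, 4823, 5874 and 5806 TPM in controls. The groups overlapped, since the lowest control lay below the highest overexpression library. The log2 change was -0.39 ± 0.13 (SE; limma adjusted p = 0.0189), and the call ended under quantile normalization (-0.20, limma adjusted p = 0.253; range over all alternatives 0.00238 to 0.253).

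Jon65Aiv (FBgn0250815) was the most abundant of the 9 genes in controls. It held 7506, 7056, 5547, 7842 and 6588 TPM in overexpression libraries, against 11459, 11459.5, 10730.1, 9745 and 10686 TPM in controls. The groups did not overlap, and the log2 change was -0.65 ± 0.09 (SE; limma adjusted p = 4.26e-05). It fell slightly more than Jon65Aiii, a difference of 0.26 in log2 change whose groups overlapped (exact permutation test, p = 0.0238, adjusted 0.0238). The other 4 pairs within 65A differed by 2.22 (Jon65Ai against Jon65Aiii), 2.48 (Jon65Ai against Jon65Aiv), -1.23 (Jon65Aii against Jon65Aiii) and -0.97 (Jon65Aii against Jon65Aiv), each with no overlap and with the smallest p the design allows (exact permutation test, p = 0.00794, adjusted 0.00893). For Jon65Ai against Jon65Aiv that p was fixed by the single-gene values, which separated the groups in opposite directions. For Jon65Ai against Jon65Aiii it was fixed as well, since any pairing of the single-gene values within a group would have separated the groups.

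**Figure D2:**
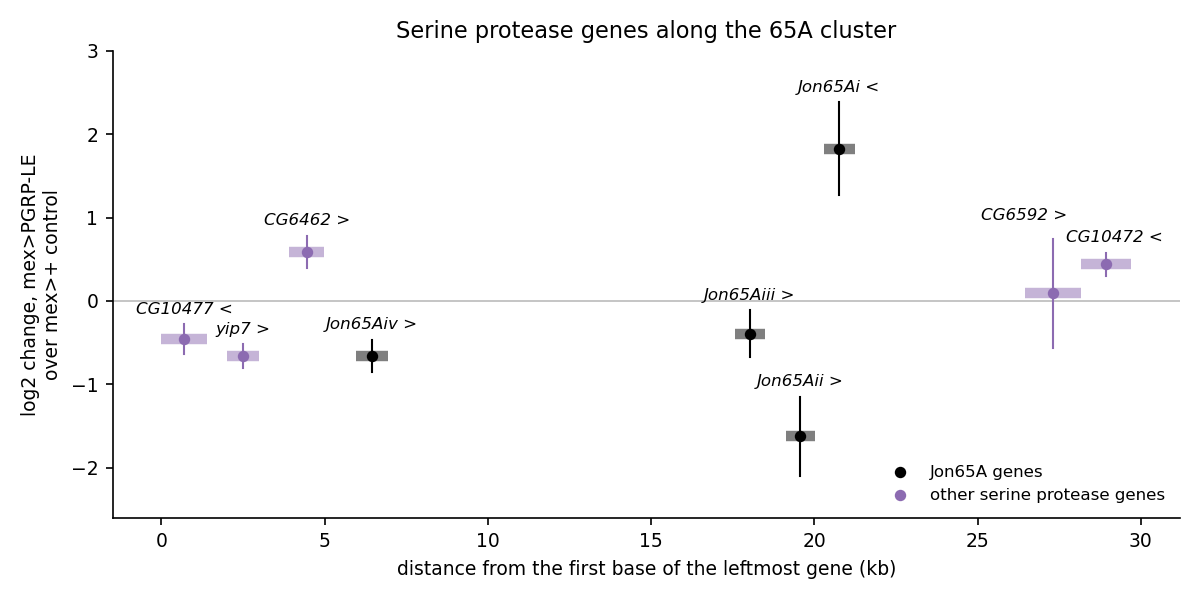
Log2 change of the serine protease genes along the 65A cluster against distance in kb from the first base of the leftmost gene; thick bars span the gene, thin lines are 95% intervals from limma with 5 libraries per group, and > and < give the strand. Adjacent Jon65Aii and Jon65Ai lie at -1.62 and 1.83, while yip7 and Jon65Aiv lie at nearly the same height.

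Other predicted serine proteases are interspersed in the 65A cluster, and they too moved in both directions. yip7, which ends 2979 bases before Jon65Aiv, fell to 6828 ± 469.7 TPM with overexpression against 10794 ± 784.6 TPM in controls (SD, n = 5; log2 change -0.66 ± 0.06, limma adjusted p = 2.79e-06). CG6462, which lies between yip7 and Jon65Aiv, rose, at 5.372 ± 0.788 TPM with overexpression and 3.212 ± 0.244 TPM in controls. CG10477 fell by 0.45 and CG10472 rose by 0.44 on the log2 scale (limma adjusted p = 3.74e-04 and 6.81e-05), and CG6592 had a change of 0.09 (limma adjusted p = 0.802). Over all bands, 29 annotated features other than the 9 genes lay within 10 kb of one of them. Of these, 17 were tested, of which 8 rose and 5 fell, with a median change of 0.09, the same as for all tested genes. The 3 with the smallest p were yip7, CG7542 and mRpL24, a mitochondrial ribosomal protein gene near band 25B that rose by 0.41 on the log2 scale (limma adjusted p = 1.34e-05).

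The order of levels among the 9 genes changed between groups. With overexpression it ran from Jon25Biii through Jon65Aiv, Jon65Aiii, Jon44E, Jon25Bi, Jon65Ai, Jon25Bii and Jon65Aii to Jon74E. The ranges of Jon65Aiii and Jon44E, of Jon25Bi and Jon65Ai, and of Jon65Ai and Jon25Bii overlapped there. In controls it ran from Jon65Aiv through Jon25Biii, Jon65Aiii, Jon25Bi, Jon25Bii, Jon65Aii, Jon65Ai and Jon44E to Jon74E, with overlapping ranges for Jon25Biii and Jon65Aiii, for Jon25Bi and Jon25Bii, and for Jon65Aii and Jon65Ai. Jon25Biii was above Jon65Aiv in 5 of 5 overexpression libraries and in 0 of 5 controls.

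Summed over the 9 genes, the level differed little in comparison with its parts. The sum was 30156 ± 2789 TPM with overexpression and 27781 ± 1399 TPM in controls (SD, n = 5), which is 3.02% and 2.78% of all TPM, and its ranges overlapped (27389.7 to 33475 and 25290.1 to 28632). The differences in mean TPM added up to 8601 over the 5 genes with a higher mean, Jon25Bi included, and to -6225 over the 4 genes with a lower mean. The difference in the sum was 2376 TPM, and 327.3 TPM after median-of-ratios rescaling.

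The make-up of the sum changed more than its size. Jon25Biii held 36.5% ± 2.30 of it with overexpression and 23.4% ± 2.65 in controls, and Jon65Aiv held 22.9% ± 1.73 and 38.9% ± 1.43 (SD, n = 5). Jon44E held 10.4% ± 1.40 with overexpression and 0.589% ± 0.0965 in controls. By band, the 25B genes summed to 14024 ± 1573 TPM with overexpression and 9978 ± 1269 TPM in controls, and the 65A genes to 12943 ± 1623 TPM with overexpression and 17619 ± 1235 TPM in controls (SD, n = 5). Neither pair of ranges overlapped.

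**Figure D3:**
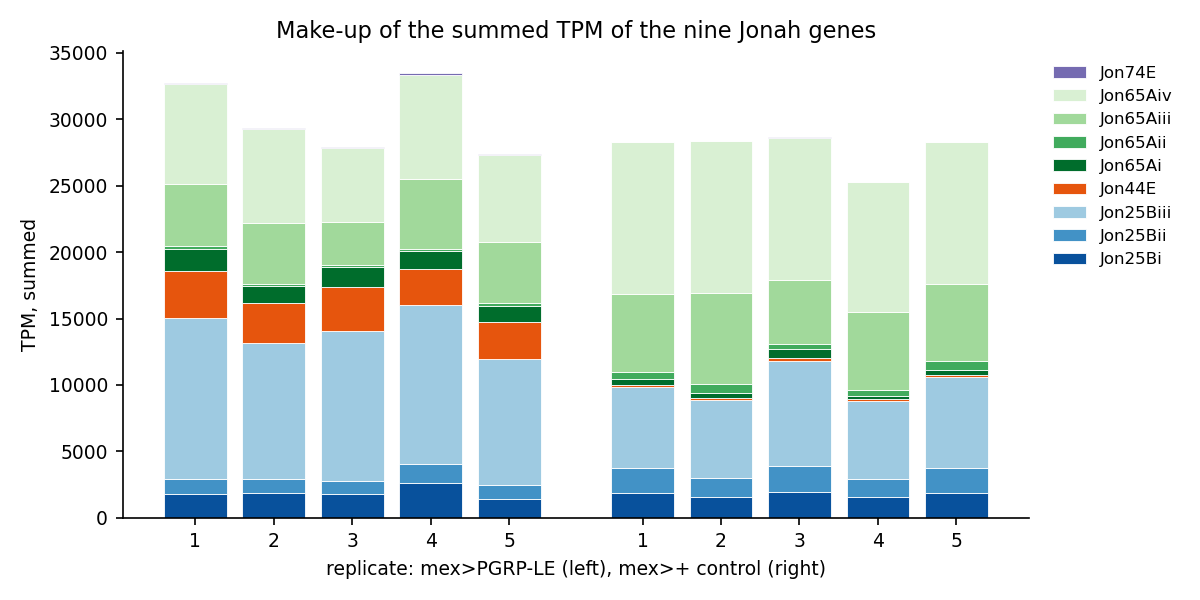
TPM of the 9 Jonah genes stacked for every library, with the 5 overexpression libraries at the left and the 5 controls at the right. The heights run from 27389.7 to 33475 TPM with overexpression and from 25290.1 to 28632 TPM in controls, while Jon44E fills 10.4% of the bar with overexpression and 0.589% in controls.

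Within groups the members did not vary alike. Among controls, replicate 3 had the highest value of 6 of the 9 genes (the 3 of 25B, Jon44E, Jon65Ai and Jon74E) and the lowest of 2 (Jon65Aii and Jon65Aiii), whereas replicate 4 had the lowest value of 5. With overexpression, replicate 4 was highest for 5 genes and replicate 5 lowest for 5. Relative spread was widest for Jon65Ai in controls, where the SD was 42.8% of the mean against 11.8% with overexpression, and narrowest for Jon65Aiv in controls, at 13.0% with overexpression and 6.53% in controls. Without control replicate 3, the same counts of 4 higher and 4 lower genes were obtained.

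The other 7 Jonah genes were split as well, with 4 rising and 3 falling and a median log2 change of 1.45, and for each of them the groups did not overlap. Jon66Ci rose to 1144 ± 304.5 TPM with overexpression against 99.31 ± 125.4 TPM in controls (SD, n = 5), a log2 change of 4.20 ± 0.69, close in size to that of Jon44E but with a much wider error. Jon66Cii, Jon99Fi and Jon99Fii rose by 2.88, 2.05 and 1.45 on the log2 scale. Jon99Ci, Jon99Cii and Jon99Ciii, 3 copies in band 99C whose separate levels were not checked for shared reads, fell by 2.31, 1.83 and 1.78. The 99C genes are abundant, and the sum of these 7 was 15677 ± 1951 TPM with overexpression and 34880.5 ± 5297 TPM in controls (SD, n = 5), ranges that did not overlap. The sum of all 16 Jonah genes was 45833 ± 4615 TPM with overexpression and 62661 ± 6056 TPM in controls.

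**Figure D4:**
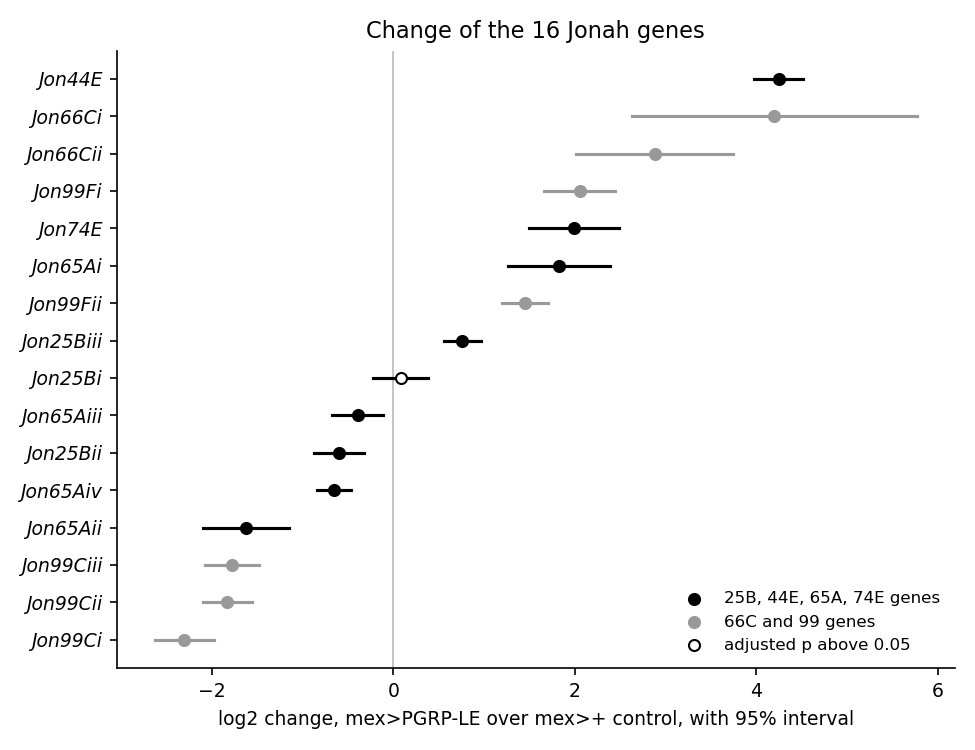
Log2 change with its 95% interval (limma, 5 libraries per group) for the 9 Jonah genes of bands 25B, 44E, 65A and 74E in black and the 7 of bands 66C and 99 in grey, ordered by change; the open symbol did not pass the threshold. Changes run from -2.31 for Jon99Ci to 4.25 for Jon44E, and genes of both sets lie on both sides of 0.

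Each of the other lists of protein digestion genes also held genes that rose and genes that fell, in numbers that differed between lists and were not compared by a test. Of 14 trypsin genes, enzymes that cut after basic residues, 8 rose and 4 fell (7 and 6 under median-of-ratios rescaling), with a median log2 change of 0.28. The 3 with the smallest p were thetaTry, which fell by 2.53, and epsilonTry and CG30025, which rose by 1.91 and 5.99, and CG30025 belongs to a cluster of similar copies. Of 15 tested chymotrypsin-like and other gut serine proteases, 4 rose and 8 fell, with a median of -0.45, and Phae2, Phae1 and CG18180 fell by 0.81, 0.66 and 1.29. Of 7 tested exopeptidases, which trim single residues from peptides, 5 rose and 2 fell, with a median of 0.44. CG31198 and CG31233 rose by 0.99 and 0.79 and CG18417 fell by 1.19.

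Genes known or proposed to regulate digestive enzyme genes moved in both directions. Of 14, 3 rose and 6 fell, with a median of -0.27, where 40.1% of all tested genes rose and 22.8% fell. The counts were 1 and 7 under median-of-ratios rescaling, and 3 and 4 of 12 with a filter of a mean of at least 5 TPM. daw, an activin-type ligand, averaged 1.378 ± 0.247 TPM with overexpression and 4.163 ± 0.573 TPM in controls (SD, n = 5), and foxo, the transcription factor of insulin signalling, fell by 0.65 on the log2 scale. The nuclear receptor gene Hr96 rose by 0.64.

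The genes whose profile over the 10 libraries was most like that of each member were found by the root mean square difference of log2(TPM + 1) after centring each gene on its mean. For Jon65Aiv the closest tested gene was yip7, at 0.097, followed by Takl2 at 0.098. For Jon65Ai the closest were Jon99Fi at 0.215 and Jon99Fii at 0.278. Jon44E was closest to the cytochrome P450 gene Cyp12d1-d at 0.184 and the glutathione S-transferase gene GstD5 at 0.293, whose changes on the log2(TPM + 1) scale were 4.08 and 3.95. Cyp12d1-d averaged 17.55 ± 1.881 TPM with overexpression and 0.09556 ± 0.04385 TPM in controls (SD, n = 5), so it passed the filter on low values only through the overexpression libraries, and its change and distance depend on the pseudocount of 1. GstD5 averaged 1608 ± 234 TPM with overexpression and 102.6 ± 12.78 TPM in controls (SD, n = 5). Jon25Biii was closest to CG16986 (0.116) and CG7953 (0.121), Jon25Bii to CG42561 (0.148) and MFS17 (0.153), and Jon25Bi to MED27 (0.134) and serp (0.160). CG42561, MED27 and serp were low, with means of 2.068, 3.778 and 1.053 TPM with overexpression and 3.544, 3.267 and 1.013 TPM in controls. Their distances therefore also depend on the pseudocount. Jon65Aii was closest to CG7997 (0.185) and SLC22A (0.255), and Jon74E to E(spl)malpha-BFM (0.253) and Lip4 (0.263). For Jon65Aiii, yellow-b was among the closest, at 0.154. The change between groups enters the distance.

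Marker genes of several cell types, enterocytes among them, differed between the groups, while the sums of other marker lists overlapped. Of 8 tested progenitor markers, all matched members of that list, 8 rose, and their summed level was between 101 and 119.4 TPM with overexpression and between 28.49 and 38.84 TPM in controls. Of 7 enterocyte markers 5 rose and 1 fell (sums from 2981 to 3335 TPM with overexpression and from 1837 to 2327 TPM in controls). Malpighian tubule markers, of which 3 of 5 were tested and 2 fell, summed to between 6.146 and 52.05 TPM with overexpression and between 28.57 and 148.4 TPM in controls. Trachea and hindgut markers were lower, at 19.07 to 23.09 and 23.41 to 28.03 TPM in sum with overexpression and 26.26 to 31.26 and 32.29 to 36.42 TPM in controls. Neuron markers, of which 3 of 8 were tested with 1 rising and 1 falling, summed to between 4.661 and 5.976 TPM with overexpression and between 6.233 and 7.403 TPM in controls, which did not overlap, and 5 of them (brp, para, futsch, VGlut and ChAT) were below 1 TPM in all libraries. Summed visceral muscle, enteroendocrine, and copper and iron region markers had overlapping ranges, although single genes in each list were called. Of 10 visceral muscle markers 0 rose and 3 fell, and of 9 tested enteroendocrine markers 2 rose and 1 fell. Of 6 copper and iron region markers 1 rose and 3 fell. Fat body and haemocyte markers, of which 1 of 5 and 1 of 6 were tested, were near the floor with sums of at most 12.71 and 9.67 TPM. The tested fat body marker did not pass the threshold, and the tested haemocyte marker, Pxn, rose by 0.31 on the log2 scale (limma adjusted p = 0.0254). The defining haemocyte genes Hml, NimC1, He and eater were below 1 TPM in all libraries. The part of these shifts in the changes of the Jonah genes was not tested.

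The authors' deposited table, made from the same libraries with RUVSeq in its title, gave the same sign as the values above for all 9 genes. In the authors' deposited table Jon44E had a log2 fold change of 4.16 and Jon25Bi of 0.03, with a p-value of 0.845 for Jon25Bi. In the authors' deposited table the values of the 25B pair that was called were -0.65 for Jon25Bii and 0.71 for Jon25Biii, and those of the adjacent 65A pair were 1.67 for Jon65Ai and -1.67 for Jon65Aii.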

How the data were processed

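Stranded libraries of polyA RNA came from midguts, per the labels' protocols. The authors deposited TPM for 31181 rows, 92 of them ERCC spike-ins, and kallisto, edgeR, FastQC, Trim Galore and build BDGP6 are listed without versions or settings, per the submitters' processing notes. The second deposited table holds the authors' log2 fold changes and p-values, whose adjustment is not stated. Whole-number counts are not used here.

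Transcripts were assigned to genes with Ensembl release 115 (BDGP6.54), the source of all coordinates, and 31048 of 31089 matched. Genes that reached 1 TPM in 5 or more of the 10 libraries were fitted as log2(TPM + 1) with limma 3.58.1 in R 4.3.3 (eBayes with trend and robust, two-sided, no covariates), a scale that understates the change of low genes. Exact permutation tests used SciPy 1.17.1. Alternatives covered pseudocounts of 0.1 and 5, filters, scalings, weights, a replicate block, omission of each library and a threshold of 0.01.

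The genes, lists and tests were chosen with earlier results of these data known. Named genes are the members, all other Jonah genes, the 3 of smallest p of each other list and of the genes within 10 kb, and the 2 of most similar profile per member, of which 1 is not reported here. The other serine proteases within the 65A cluster and CG8586 are named for their position. PGRP-LE is named as a check of the labels and Dredd as the gene that is mutant in both groups. A further 4 haemocyte and 5 neuron genes are named after their values were seen. Listed genes CG8579, CG14516, Dl and hdc were not analysed here. Transcript, promoter and protein sequences were not used here. Whether the replicates were separate cultures of flies is stated only as biological replicates.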

Additional observations from a re-analysis of the deposited data

Results flagged for a closer look

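For each of the 9 genes and for their sum, the library farthest from the others of its group was examined, which gave 20 groups of 5 libraries, and about 1 in 20 would be expected by chance. In 2 of them a library was separated from the nearest other by more than 0.71 of the range of the group. Jon25Bii reached 1432 TPM in overexpression replicate 4, a gap of 0.785 of the range, and replicate 4 was also the highest overexpression library for Jon25Bi. The sum of the 9 genes was 25290.1 TPM in control replicate 4, a gap of 0.901 of the range below the other controls. Without overexpression replicate 4 the log2 change of Jon25Bii was -0.69.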

How the results depend on the processing

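Of 21 alternatives, 19 kept all 8 calls among the Jonah genes and their directions. The call of Jon65Aiii ended in the others, at -0.20 under quantile normalization and, with its value of -0.39 unchanged, at a threshold of 0.01, and the cause of the first was not tested. Jon25Bi, which was not called, turned to -0.02 under median-of-ratios rescaling and ran from -0.04 to 0.17 when single libraries were left out, the negative value being the one without overexpression replicate 4. The regulators of digestive enzyme genes had 1 higher gene under median-of-ratios rescaling and 1 at a threshold of 0.01. The difference in the summed TPM of the 9 genes ran from 1546 to 3067 when single libraries were left out, the low end without overexpression replicate 4 (1734 without overexpression replicate 1), and was 1982 after spike-in rescaling. Across tested genes, the correlations of same-numbered deviations were -0.173, 0.570, -0.233, 0.065 and -0.056, and 1 of 5 overexpression libraries correlated best with its own number. A replicate block in limma lowered the SE of Jon44E from 0.123 to 0.064 and of Jon65Aiii from 0.128 to 0.076. The SE was also lower for Jon65Ai, Jon65Aii and Jon74E, but higher for Jon25Bi (0.138 to 0.159) and Jon25Bii (0.126 to 0.155). Whether replicate numbers mark real pairs was not tested. With the replicate block in limma, Jon65Aiii stayed at -0.39 (limma adjusted p = 0.00238) and no call among the 9 Jonah genes changed. Other lists did change: the trypsins then had 8 higher and 6 lower genes, and the regulators 2 higher and 6 lower. With the replicate block 0 of the 9 pair differences passed, since an exact permutation test within 5 pairs cannot go below p = 0.0625, which all 9 reached. Summing members that share sequence with other genes was not run. TPM give no depth, so counting error is unknown.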
